A study of Mus musculus with 16 samples.

Results

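The comparison set WT mouse B cells given KU55933, an inhibitor of the kinase ATM, against untreated WT B cells under the same stimulus, anti-CD40 with IL4. Members were the libraries labelled with those treatments, 3 with KU55933 and 4 without, of 16 libraries in the series. They held 71678 of 141168 junctions, 45827 with KU55933 and 25851 without. Each junction joins a fixed break, the bait, to another broken end, the prey, and was mapped by high-throughput genome-wide translocation sequencing. The question was how junctions are spread over the genome when the kinase activity of ATM is blocked, and all prey regions were compared, the bait's own chromosome included.

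The cells of both groups were splenic IgM+ B cells of WT genotype from 129sv mice aged 6 to 8 weeks. In both, 25 I-SceI sites in the first intron of 1 Myc allele on chromosome 15 served as bait, and a retrovirus delivered the I-SceI nuclease that cuts it. Cells received anti-CD40 at 1 µg/mL and IL4 at 20 ng/mL, were infected at 24 h and were harvested at day 4. KU55933 at 10 µM was added with the virus and kept on. The 3 ATM-/- libraries of the same strain and stimulus serve below as the most similar condition. Those libraries are compared with the same untreated WT libraries, so the results against WT are not independent.

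ATM is activated at double-strand breaks and phosphorylates chromatin and repair proteins around them, which holds broken ends together and stops the cell cycle until they are joined. KU55933 competes with ATP in its catalytic site, so the protein is present but inactive, unlike in ATM-/- cells. B cells are a demanding setting for this kinase because they break their own DNA. During class switch recombination the deaminase AID attacks Smu, the switch region before the IgM constant gene, and a downstream switch region, and the joined ends delete the DNA between them. IL4 with CD40 signalling directs the switch to Sg1 (IgG1) and Se (IgE). AID also breaks some genes outside the heavy chain locus Igh, called off-targets here.

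The libraries differed in more than the inhibitor. All 4 untreated libraries were read on a 454 sequencer and all 3 KU55933 libraries on a MiSeq. The effects of inhibitor and sequencer cannot be told apart. The 3 ATM-/- libraries were also read on the 454, so every difference between ATM-/- and KU55933 below goes with the sequencer too. Untreated libraries held 4674 to 8379 junctions (731 to 1509 outside chromosome 15) and KU55933 libraries 10528 to 18264 (3606 to 5604 outside). In KU55933 replicates 2 and 3 only 35.2% and 34.8% of prey sequences ended in GG, the bases left by HaeIII, which cut the DNA before adapter ligation. That share was 86.0% in KU55933 replicate 1, 84.5% to 91.2% in untreated WT and 85.9% to 90.01% in ATM-/-. KU55933 replicates 1 and 2 came from the same run and shared 171 exact junctions farther than 10 kb from the break, 3.12% and 2.04% of theirs, while the other 20 pairs shared 0 to 4. KU55933 replicate 3 held no junction with more than 10 inserted bases, against 275 to 339 in the longest of the other 6. Prey that began in a CA repeat made up 2.83% to 3.30% of junctions outside chromosome 15 with KU55933 and 0.153% to 0.958% without. The part of these differences in the results was not tested except where values without those libraries or junctions are given.

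The sequences below are the 200-base windows with the most junctions over the 7 libraries in Smu, Sg1, Se and the off-target Il4ra (the IL4 receptor alpha chain), on mouse build mm9. They show the ground on which the results at Igh and at off-targets rest. Capitals mark AGCT, a palindromic hot spot of AID, and overlapping or adjacent copies run together.

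Smu, chr12:114663870-114664069, + strand: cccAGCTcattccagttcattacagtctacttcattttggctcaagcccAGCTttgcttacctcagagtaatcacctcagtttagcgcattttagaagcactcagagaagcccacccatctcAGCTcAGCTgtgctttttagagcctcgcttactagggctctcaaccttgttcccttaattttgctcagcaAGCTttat

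Sg1, chr12:114575462-114575661, + strand: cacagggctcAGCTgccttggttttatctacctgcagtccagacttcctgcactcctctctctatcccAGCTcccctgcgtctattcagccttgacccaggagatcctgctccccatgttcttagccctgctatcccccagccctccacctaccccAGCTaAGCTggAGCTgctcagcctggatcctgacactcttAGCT

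Se, chr12:114514402-114514601, + strand: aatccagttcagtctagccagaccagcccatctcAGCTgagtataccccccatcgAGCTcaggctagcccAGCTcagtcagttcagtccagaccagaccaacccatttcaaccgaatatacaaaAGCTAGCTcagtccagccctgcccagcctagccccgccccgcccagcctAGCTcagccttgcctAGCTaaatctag

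Il4ra, chr7:132696567-132696766, + strand: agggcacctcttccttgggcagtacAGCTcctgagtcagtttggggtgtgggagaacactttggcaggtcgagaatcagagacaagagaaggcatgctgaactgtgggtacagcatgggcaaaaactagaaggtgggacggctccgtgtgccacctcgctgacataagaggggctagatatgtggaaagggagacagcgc

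The windows held 5 (Smu), 6 (Sg1), 7 (Se) and 1 (Il4ra) copies of AGCT. Over all bases that prey of the 7 libraries covered, the density was 52.2 copies per kb in Smu, 16.4 in Sg1, 33.6 in Se and 4.27 in Il4ra. The Smu window took 59 of the KU55933 junctions of Smu (13.1%) and 60 of the untreated ones (29.3%). The Il4ra window took 26 KU55933 junctions (14.1%) and 1 untreated one (4.76%). Il4ra was therefore a target with few copies of the motif, and the junctions in it lay in a stretch that, unlike the switch regions, is not repetitive in AGCT.

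With KU55933 a smaller share of junctions lay near the break. Within 1 Mb of it lay 75.7%, 80.9%, 77.9% and 80.5% of all junctions in untreated WT replicates 1 to 4, and 52.5%, 55.6% and 54.2% in KU55933 replicates 1 to 3. The groups did not overlap, and the means were 78.7% ± 2.43 (SD, n = 4) and 54.1% ± 1.53 (n = 3). Other chromosomes took 18.9%, 15.4%, 18.0% and 15.6% without the inhibitor and 34.3%, 31.9% and 30.7% with it. The two-sided exact permutation test used for shares has 35 splits here and cannot give a p below 0.0286. Of 99 shares tested, 58 (58.6%) did not overlap between the groups and 50 (50.5%) had that smallest p, which became 0.0566 after Benjamini-Hochberg adjustment, so none passed 0.05. Shares are therefore given as values, and the calls below come from edgeR. The ATM-/- libraries, read on the 454 like untreated WT, held 50.8% to 59.1% of junctions within 1 Mb.

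Most junctions close to the break were outward, meaning that the prey was read away from the break, as when one end is trimmed back before joining. Telomeric of the break, outward junctions within 1 kb made up 34.2%, 37.2%, 34.3% and 39.9% of all junctions in untreated WT and 24.7%, 19.1% and 21.8% with KU55933. From 1 to 10 kb they made up 18.1%, 17.6%, 17.7% and 17.9%, and with KU55933 10.9%, 10.3% and 9.31%. The telomeric side thus lost share in both distance ranges, and no KU55933 library reached the lowest untreated one. In edgeR's quasi-likelihood test on all junctions, the telomeric band within 10 kb fell by 0.71 on the log2 scale (SE 0.11, Benjamini-Hochberg adjusted p = 2.43e-06).

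The centromeric side differed in where the junctions fell. Outward junctions within 1 kb held 6.06%, 7.80%, 8.51% and 7.42% of the total without KU55933 and 7.01%, 14.0% and 10.9% with it, so the groups overlapped. From 1 to 10 kb the untreated libraries held 7.55%, 8.07%, 5.96% and 5.03% and the KU55933 libraries 1.21%, 2.69% and 2.42%. The centromeric band within 10 kb as a whole changed by -0.08 on the log2 scale (SE 0.18, edgeR adjusted p = 0.708). With each position counted once it fell by 0.80 (SE 0.14, edgeR adjusted p = 4.72e-06). Its outward junctions then took 7.81% with KU55933 and 15.7% without, with no overlap. Counting positions once depends on depth, here and below, since in a deeper library more junctions fall on positions already taken. KU55933 libraries held 10528 to 18264 junctions and untreated ones 4674 to 8379. The part of depth in the fall was not tested. Outward centromeric junctions within 10 kb lay nearer the break with the inhibitor. Their median distance was 1152, 1008, 914.5 and 923 bases in untreated WT and 649, 352 and 325.5 bases with KU55933. The 90th percentile was 2255 to 2832 bases without it and 1509 to 1672 bases with it. Among those junctions 44.5% to 59.6% lay within 1 kb in untreated WT and 81.9% to 85.3% with KU55933 (exact permutation p = 0.0286, adjusted over 26 tests near the break 0.0743).

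The shift was also seen apart from the libraries with few GG ends. KU55933 replicate 1, which had the usual share of them, had 85.3% within 1 kb. With prey ending in GG only, the ranges were 43.1% to 58.4% without and 75.8% to 83.9% with the inhibitor. With each position counted once they were 36.7% to 54.5% and 61.6% to 77.2%, while the 90th percentile of the distance, 2821 to 2859 bases without and 2611 to 2793 bases with KU55933, differed far less than with repeats kept. Repeated positions were frequent near the break: 63.1% to 82.6% of the untreated and 38.6% to 57.2% of the KU55933 outward centromeric junctions within 10 kb lay at distinct positions, against 100.0% in every one of the 7 libraries outside chromosome 15. Telomeric of the break these shares were 34.5% to 42.7% and 35.01% to 40.3%. On the telomeric side the median distance was 724 to 773 bases without and 612 to 751 bases with KU55933, and the ranges overlapped. The percent within 1 kb also overlapped, with all junctions and with each position counted once. With prey ending in GG only it did not, at 64.1% to 68.0% without and 68.7% to 84.9% with KU55933. With each position counted once the telomeric 90th percentile was 4080 to 4830 bases without and 4034 to 4070 bases with it, without overlap. The ATM-/- libraries had centromeric medians of 356 to 669 bases, below every untreated library.

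**Figure D1:**
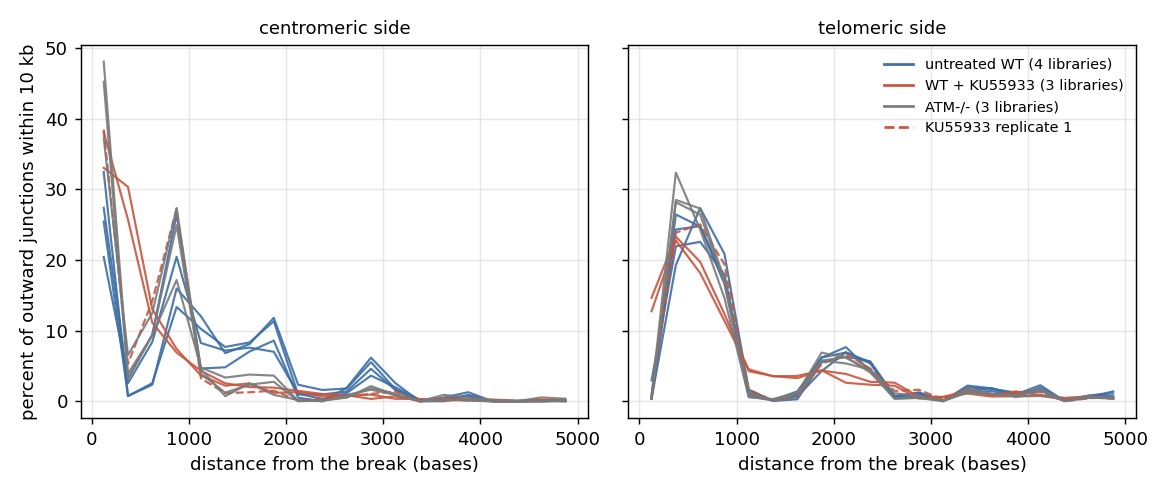
Outward junctions within 10 kb of the break, as percent of those junctions per 250-base window (y axis) against the distance from the break in bases (x axis, drawn to 5000), for the centromeric (left) and telomeric (right) side, 1 line per library. On the centromeric side the untreated lines stay above those of KU55933 between 1000 and 2000 bases, and KU55933 replicates 2 and 3, unlike replicate 1 (dashed), fill distances that are nearly empty in the other libraries.

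Farther out the telomeric side was depleted with KU55933. Outward junctions from 10 to 100 kb telomeric of the break made up 1.99%, 2.00%, 2.65% and 1.60% of all junctions in untreated WT and 0.741%, 0.476% and 0.268% with the inhibitor. From 100 kb to 1 Mb they made up 2.30%, 2.27%, 2.65% and 2.18% without and 0.731%, 0.728% and 0.372% with it. Each KU55933 library lay below every untreated one in both bands. The telomeric bands fell by 1.68 (10 to 100 kb, SE 0.21, edgeR adjusted p = 3.69e-08) and by 1.71 (100 kb to 1 Mb, SE 0.17, adjusted p = 3.49e-10) on the log2 scale. With KU55933 replicate 1 as the only treated library the changes were -1.17 and -1.43, and with prey ending in GG only -1.55 and -1.58.

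The loss was mostly of outward junctions. Inward junctions, read toward the break, held 0.186% to 0.259% from 10 to 100 kb telomeric of it without KU55933 and 0.164% to 0.285% with it, and these ranges overlapped. From 100 kb to 1 Mb inward junctions held 0.251% to 0.305% without and 0.186% to 0.247% with it, which did not overlap but did with prey ending in GG only. The outward share of the band was 90.7%, 91.5%, 91.4% and 86.2% in untreated WT and 72.2%, 62.8% and 62.0% with the inhibitor. From 100 kb to 1 Mb it was 88.2% to 91.4% without and 66.7% to 79.5% with it. In ATM-/- libraries the outward junctions from 10 kb to 1 Mb made up 0.8285% to 1.13% of the total, against 3.79% to 5.30% in untreated WT and 0.641% to 1.47% with KU55933.

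On the centromeric side the same distances changed the other way. The band from 100 kb to 1 Mb rose by 1.04 on the log2 scale (SE 0.16, edgeR adjusted p = 1.74e-06), and the band from 10 to 100 kb by 0.96 (SE 0.21). Both are close to the median change of the 41 regions in that fit, 0.96, and with TMM factors they were 0.15 (adjusted p = 0.519) and 0.09 (adjusted p = 0.837). Inward junctions from 100 kb to 1 Mb made up 0.623%, 0.644%, 0.633% and 0.556% of the total without KU55933 and 1.42%, 1.39% and 1.72% with it. Outward ones made up 0.321% to 0.407% and 0.484% to 0.552%. The outward share there went from 36.6% to 39.1% in untreated WT to 24.2% to 28.4% with the inhibitor. Both centromeric bands were lower in ATM-/- than with KU55933 in the same edgeR fit. The log2 differences were 0.68 (100 kb to 1 Mb, adjusted p = 0.00587) and 0.80 (10 to 100 kb, adjusted p = 0.0103). The sequencer differs between those groups as well, and its effect cannot be told apart.

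**Figure D2:**
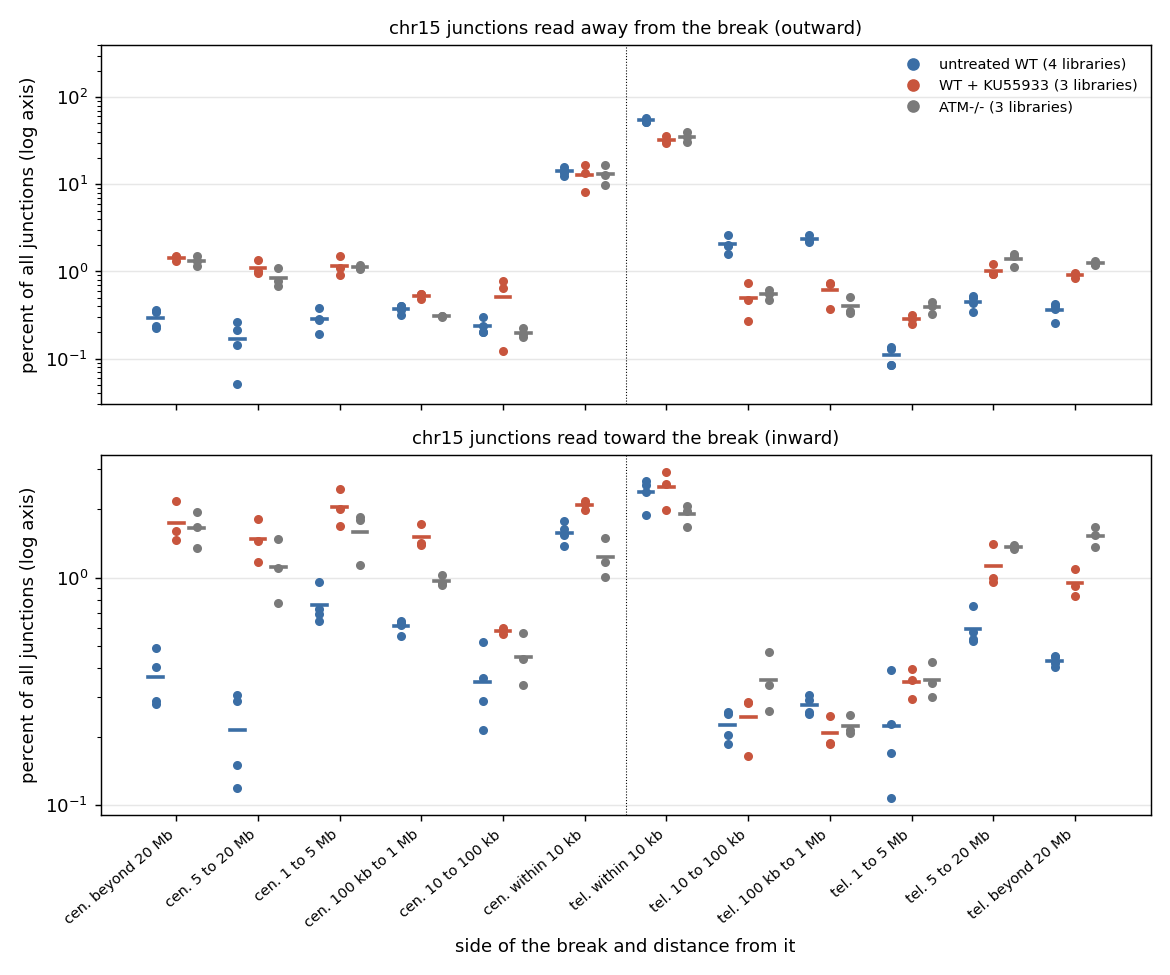
Percent of all junctions of a library (y axis, log scale) in each distance band of chromosome 15 (x axis, cen. centromeric and tel. telomeric of the break), for junctions read away from the break (top) and toward it (bottom). Points are libraries and bars are group means; the KU55933 points lie below the untreated ones in the top panel for telomeric bands from within 10 kb to 1 Mb, and above them in both panels for centromeric bands beyond 1 Mb.

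Beyond 1 Mb, chromosome 15 gained junctions on its centromeric arm. The bands 1 to 5 Mb, 5 to 20 Mb and beyond 20 Mb from the break held 0.919% to 1.33%, 0.170% to 0.565% and 0.526% to 0.855% of all junctions in untreated WT. With KU55933 they held 2.77% to 3.96%, 2.13% to 3.17% and 2.77% to 3.63%, and no band overlapped. The rises were 1.63 (SE 0.17), 2.73 (SE 0.25) and 2.26 (SE 0.18) on the log2 scale, with edgeR adjusted p of 7.33e-10, 1.77e-10 and 1.48e-11. These fits used all junctions as library size, and of 41 regions 35 were called (85.4%), 32 higher (78.0%) and 3 lower (7.32%), so a rise alone sets no region apart. The median change over the 41 regions was 0.96.

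The centromeric arm still stood out when only junctions beyond 1 Mb were counted. On that base the median change was -0.08, and 4 of 35 regions rose (11.4%) and 6 fell (17.1%). The 4 were the 3 centromeric bands, with 0.54 (1 to 5 Mb, edgeR adjusted p = 0.00593), 1.65 (5 to 20 Mb) and 1.18 (beyond 20 Mb), and chromosome 12 centromeric of Igh. The telomeric bands at 1 to 5 Mb, 5 to 20 Mb and beyond 20 Mb changed by -0.22, -0.08 and 0.10 and did not pass. Of junctions beyond 1 Mb the centromeric arm took 11.3%, 8.78%, 8.97% and 9.76% without KU55933 and 16.5%, 18.9% and 23.5% with it. The telomeric arm took 10.8%, 10.5%, 9.51% and 10.1%, and with KU55933 11.3%, 9.33% and 9.57%, so its groups overlapped.

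Along the arm, junctions were counted in 5 Mb windows per Mb and per 1000 junctions beyond 1 Mb. The window from 45 to 50 Mb held 2.01 ± 0.822 with KU55933 (SD, n = 3) and 0.480 ± 0.129 without (n = 4), 4.18 times as many. That from 50 to 55 Mb held 5.12 ± 1.57 and 1.36 ± 0.461, and that from 55 to 60 Mb 13.4 ± 1.68 and 7.02 ± 1.47. The ratios of the last pair were 3.77 and 1.91, so the ratio was lower, and the difference per Mb larger, in the window nearer the break. The window from 60 to 65 Mb, which holds the break, had 9.26 ± 1.65 and 10.01 ± 3.23 outside the 1 Mb left out. Libraries also overlapped in the centromeric windows from 0 to 5 Mb and from 15 to 30 Mb, where the ratios were 1.36 to 2.66. The windows from 65 to 95 Mb on the telomeric side had ratios of 0.775 to 1.14, and their libraries overlapped. The window from 95 to 100 Mb had a ratio of 1.45, with 1.19 to 1.60 in untreated libraries and 1.88 to 2.20 with KU55933. In ATM-/- the telomeric band beyond 20 Mb was higher than with KU55933 by 0.58 on the log2 scale (edgeR adjusted p = 0.00587), while the centromeric bands beyond 1 Mb did not differ by that test (-0.42 to -0.10).

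**Figure D3:**
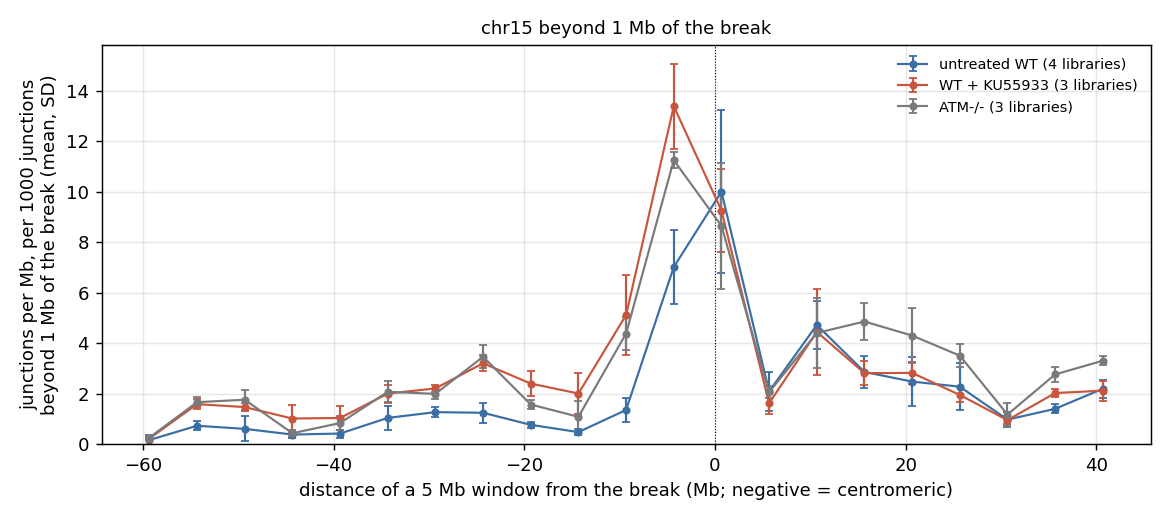
Junctions per Mb and per 1000 junctions beyond 1 Mb of the break, along chromosome 15 by distance from the break, for untreated WT, KU55933 and ATM-/- libraries (points are group means of 5 Mb windows, bars the SD). On the centromeric side the KU55933 means exceed the untreated ones up to 4.18 times, though the libraries overlap from 0 to 5 Mb and from 15 to 30 Mb. On the telomeric side the libraries overlap from 65 to 95 Mb.

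Outside chromosome 15, the regions were tested with junctions outside that chromosome as library size. Of 29 regions, 3 were called by edgeR (10.3%), 1 higher (3.45%) and 2 lower (6.9%). Chromosome 12 centromeric of Igh rose, the constant and switch part of Igh fell, and chromosome 5 fell. The first 2 kept their call in 14 of 14 alternative settings of this fit and in all 7 fits that left out 1 library. Chromosome 5 fell by 0.36 on the log2 scale (SE 0.11, edgeR adjusted p = 0.0314), kept its call in 8 of the 14 and in 2 of the 7, and reached an adjusted p of 0.195 without untreated WT replicate 1. With all junctions as library size it rose by 0.54 (SE 0.15, adjusted p = 0.00126).

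Igh lies at the telomeric end of chromosome 12, so nearly the whole chromosome is centromeric of it. That part took 2.60%, 4.07%, 2.85% and 3.15% of junctions outside chromosome 15 in untreated WT and 6.99%, 6.52% and 6.94% with KU55933. Every KU55933 library exceeded the highest untreated one. The rise was 1.14 on the log2 scale (SE 0.13, edgeR adjusted p = 2.85e-09), 1.18 with KU55933 replicate 1 as the only treated library and 1.18 with prey ending in GG only. In ATM-/- the share was 7.59% to 10.3%, higher than with KU55933 by 0.34 (SE 0.10, adjusted p = 0.0120). Telomeric of Igh, chromosome 12 held 0.166% to 0.221% with KU55933 and 0% to 0.153% without, from 29 and 4 junctions. The groups did not overlap, but that change of 1.09 (SE 0.74) did not pass (edgeR adjusted p = 0.407).

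The largest difference per Mb lay beside Igh. Between 110 Mb and the start of Igh lay 0.536%, 0.989%, 0.663% and 0.547% of junctions outside chromosome 15 without KU55933 and 2.58%, 2.03% and 2.03% with it. Per Mb and per 1000 junctions this was 5.00 ± 0.717 with KU55933 (SD, n = 3) and 1.54 ± 0.478 without (n = 4), a ratio of 3.24. A higher ratio on fewer junctions, 4.26, was found from 75 to 80 Mb, with 0.901 ± 0.0848 and 0.211 ± 0.142. From 100 to 110 Mb the libraries held 0.153% to 0.769% without and 1.01% to 1.05% with it, and ATM-/- held 1.73% to 2.67%. From 70 to 100 Mb the values were 0.821% to 1.43% and 2.06% to 2.30%. Below 70 Mb the groups overlapped. With prey ending in GG only, the groups also overlapped from 70 to 100 Mb and from 100 to 110 Mb. Prey on the plus strand made up 46.0% to 51.1% of these junctions with KU55933 and 37.8% to 52.9% without, so junctions of both orientations were present in each group.

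**Figure D4:**
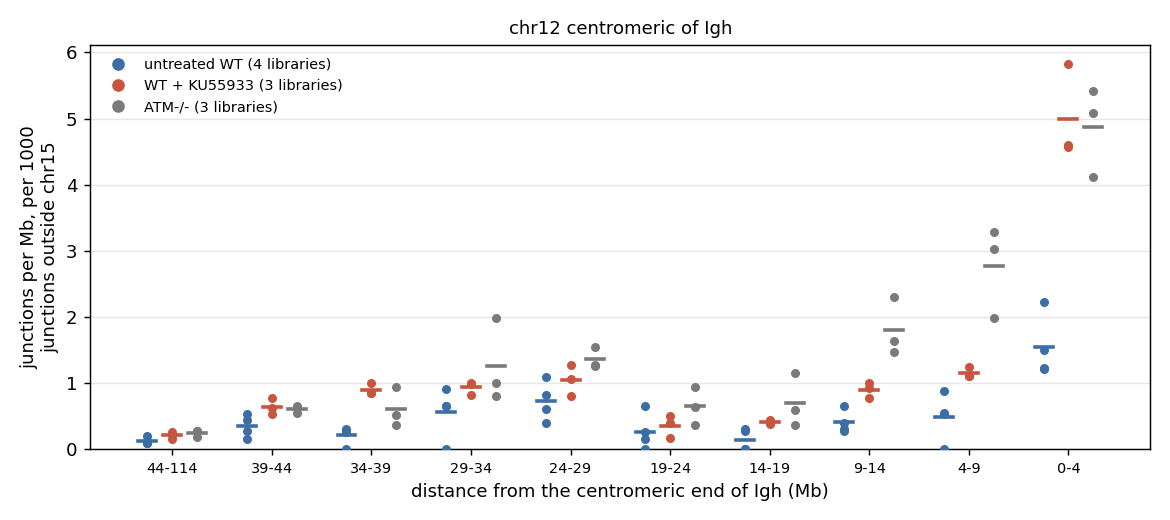
Junctions along chromosome 12 centromeric of Igh, per Mb and per 1000 junctions outside chromosome 15, by distance from Igh in Mb, for untreated WT, KU55933 and ATM-/- libraries (points) with group means (bars). The window next to Igh holds 5.00 with KU55933 and 1.54 in untreated WT on average.

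Igh itself went the other way. The constant and switch part held 13.4%, 11.3%, 12.1% and 14.2% of junctions outside chromosome 15 in untreated WT and 9.12%, 9.74% and 8.17% with KU55933. It fell by 0.50 on the log2 scale (SE 0.11, edgeR adjusted p = 9.07e-04). In ATM-/- it held 4.86% to 6.89%, less than with KU55933 by 0.60 on the log2 scale (SE 0.12, adjusted p = 2.77e-04). The direction rests on the base. With all junctions as library size the constant and switch part rose by 0.42 on the log2 scale (SE 0.19, edgeR adjusted p = 0.0392), less than the median of 0.96 over the 41 regions. The D-J part, the V part and the light chain locus Igk overlapped between the groups. The other light chain locus, Igl, held 0 to 0.0765% without KU55933 and 0.0892% to 0.166% with it, from 2 and 18 junctions, and did not pass (edgeR adjusted p = 0.407).

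The 3 switch regions used under this stimulus behaved differently from each other. Se, the IgE switch region, had 73, 34, 61 and 20 junctions in untreated WT and 66, 59 and 11 with KU55933. As shares of junctions outside chromosome 15 these were 5.59%, 3.74%, 4.04% and 2.74%, and 1.83%, 1.09% and 0.196%. Every KU55933 library lay below every untreated one, and KU55933 replicate 3 lay lowest. Se was the only one of 162 genes and switch regions called by edgeR (0.617%), and it fell by 1.98 on the log2 scale (SE 0.53, adjusted p = 0.0305). The call held in 11 of 16 alternative settings and 3 of 7 fits without 1 library. With TMM factors the change was -1.31 (edgeR adjusted p = 0.116), and the median change over the 162 rose from 0.48 to 1.15. With KU55933 replicate 1 as the only treated library the change was -1.15 and the adjusted p 0.386.

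Smu, the donor region of every switch, held 4.51%, 4.73%, 3.84% and 6.16% in untreated WT and 3.11%, 3.30% and 2.82% with KU55933. These did not overlap, but the change of -0.64 on the log2 scale did not pass (edgeR adjusted p = 0.570). Sg1, the IgG1 switch region, held 2.30%, 2.09%, 3.31% and 4.51% without and 2.50%, 4.20% and 3.64% with it, a change of 0.19 (adjusted p = 0.876). With prey ending in GG only, Sg1 held 1.26% to 1.72% with KU55933 and 1.71% to 3.25% without. The means were then 1.55% and 2.25%, lower with KU55933, and the groups overlapped. On the base of all junctions the order of separation turned, with Sg1 at 1.10% with KU55933 and 0.515% without and no overlap, and Se at 0.345% and 0.698% with overlap. That base was not tested with prey ending in GG only. Of the junctions in Sg1 and Se together, Sg1 took 29.1%, 35.8%, 45.0% and 62.3% without KU55933 and 57.7%, 79.4% and 94.9% with it, so untreated replicate 4 and KU55933 replicate 1 crossed (exact permutation p = 0.0857). Of the minor switch regions Sg3, Sg2b, Sg2a and Sa none was called. Constant region junctions outside any switch label made up 0.530% to 0.769% without and 1.03% to 1.61% with the inhibitor, so the loss was not shared by the whole of the constant locus. Over the 6 of 7 switch regions that were tested the median change was -0.07, or -0.48 with the region at 0 in untreated WT set at its bound.

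The AGCT motif was compared in the first 20 bases of each prey. In Smu 44.1%, 44.2%, 53.4% and 48.9% of the untreated prey held it there, and 59.8%, 61.5% and 63.3% with KU55933. With prey ending in GG only, the KU55933 mean was 42.2% and the untreated one 35.5%, and the groups overlapped. In junctions outside Igh and the off-target list the share was 8.40% to 10.7% without and 7.95% to 9.36% with it. In Sg1 and Se the groups overlapped.

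Genes known as AID off-targets took more of the KU55933 junctions as a list. The 32 listed genes were chosen with earlier results of these data known, so the count is a description. They took 2.91%, 2.09%, 1.46% and 1.92% of junctions outside chromosome 15 in untreated WT and 6.32%, 4.57% and 3.21% with KU55933, and 1.31% to 2.87% in ATM-/-. The lowest KU55933 library exceeded the highest untreated one. Of the 32, 17 had at least 10 junctions over all libraries and were tested, and none was called by edgeR, against 0.617% of all genes. Of the 17, 5 were higher at an unadjusted p under 0.05 and none lower, against 20 of 162 genes higher (12.3%) and 3 lower (1.85%). In 7 of the 17 every KU55933 library exceeded every untreated one and in none was it the reverse, against 16.7% and 3.09% of all genes. Their median change was 0.86, or 0.77 with the 2 genes at 0 in untreated WT at their bound, against 0.48 and -0.03 over all 162 genes. Every tested gene had passed the filter of 10 junctions over all 16 libraries. KU55933 libraries held 14642 of the 33479 junctions outside chromosome 15 and untreated ones 4457. The filter therefore favours genes high with KU55933, and 29 of the 162 had no untreated junction. With no filter the median change over all genes was 0. The 15 untested members had 35 junctions with KU55933 and 5 without.

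Il4ra led the list. It had 9, 1, 6 and 5 junctions in untreated WT and 57, 77 and 51 with KU55933, or 6.89, 1.10, 3.98 and 6.84 per 1000 junctions outside chromosome 15 against 15.8, 14.2 and 9.10. The groups did not overlap. The change was 1.45 on the log2 scale (SE 0.52, edgeR adjusted p = 0.198), and with prey ending in GG only it was 1.50 with an adjusted p of 0.0405. Il21r, the IL21 receptor gene beside it, had 2, 2, 2 and 1 junctions without and 24, 24 and 21 with the inhibitor, a change of 1.59 (SE 0.63, adjusted p = 0.211), and 1.93 with an adjusted p of 0.0405 for prey ending in GG only. The fit of GG prey, chosen after seeing the data, adjusted over 90 genes and the main fit over 162, so their adjusted p-values are not alike. With TMM factors both Il4ra and Il21r passed, at 2.22 for Il4ra (edgeR adjusted p = 0.00570) and 2.34 for Il21r (adjusted p = 0.00734). Those factors moved the median change over all 162 genes from 0.48 to 1.15. Part of each value with TMM factors is therefore a shift that the factors give to the genes in general. It is not a rise measured in them, since the median over all 6872 genes with no filter was 0. The ATM-/- libraries had 16, 17 and 5 junctions in Il4ra and 2, 5 and 2 in Il21r.

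The same neighbours set the only called bin. Of 455 bins of 5 Mb, 1 passed (0.22%). It covers 130 to 135 Mb on chromosome 7 and rose by 1.16 on the log2 scale (SE 0.30, edgeR adjusted p = 0.0440). Without the junctions in Il4ra and Il21r it held 0.532% ± 0.0692 of junctions outside chromosome 15 with KU55933 (SD, n = 3) and 0.404% ± 0.151 without (n = 4). The call held in 9 of 17 alternative settings and in 2 of 7 fits without 1 library.

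Junctions in Il4ra also leaned to one strand. With KU55933 78.9%, 76.6% and 78.4% of its prey were on the plus strand. In untreated WT 4 of 9, 0 of 1, 3 of 6 and 4 of 5 junctions were, too few to set the groups apart. In Il21r the KU55933 shares were 83.3%, 79.2% and 76.2%, and in Pim1, a kinase gene mutated by AID in lymphomas, 80.0%, 58.3% and 77.8%. Bcl6, a repressor of germinal centre B cells, had 46.2%, 46.2% and 28.6%.

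Other members had fewer junctions and did not pass in the main fit. Bcl6 (2.68, adjusted p = 0.0172) and Pax5 (2.46, adjusted p = 0.0387) did in edgeR with TMM factors, where the median gene changed by 1.15. Pim1 had 2, 6, 4 and 4 junctions in untreated WT and 40, 36 and 18 with KU55933, with overlapping levels of 4.06 ± 2.37 (SD, n = 4) and 6.98 ± 3.95 (n = 3) per 1000. Bcl6 had 0, 2, 0 and 1 against 13, 13 and 14, a change of 1.92 (SE 0.83, edgeR adjusted p = 0.247). Pax5, a factor that keeps B cell identity, had 2, 0, 0 and 1 against 9, 15 and 10, a change of 1.70 (SE 0.83, adjusted p = 0.291). Cd83, an activation marker, had 7, 2, 2 and 0 against 16, 13 and 12, a change of 0.26.

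**Figure D5:**
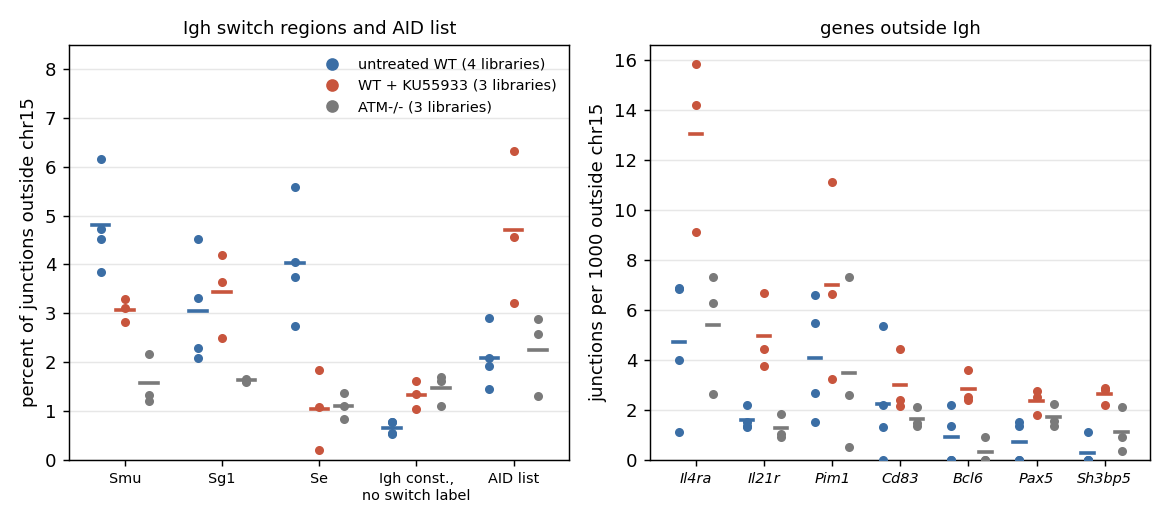
Left, percent of junctions outside chromosome 15 in Smu, Sg1, Se, the Igh constant part without a switch label, and the off-target list; right, junctions per 1000 outside chromosome 15 in 7 genes. Points are libraries and bars are group means; the KU55933 points lie below the untreated ones for Se and Smu and above them for the list, Il4ra and Il21r, and both groups overlap for Sg1, Pim1 and Cd83.

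Sh3bp5, which encodes a mitochondrial protein that binds the kinase JNK, had 0, 1, 0 and 0 junctions in untreated WT and 10, 12 and 16 with KU55933. The change was 3.22 (SE 1.03, edgeR adjusted p = 0.150), and 2.74 to 5.53 in fits that left out 1 library. With prey ending in GG only it was 5.17 with an edgeR adjusted p of 0.00408. That fit was chosen after seeing the data and adjusted over 90 genes only. Its value rests on at most 1 untreated junction and no bound is given, so its size is uncertain. Sh3bp5 was named because it was among the 10 genes with most junctions with KU55933. The label shared by Ubac2 and Gpr183, picked after its values were seen, had no junction in untreated WT and 1, 10 and 13 with KU55933. Its KU55933 mean was at least 2.20-fold higher against a floor of 3 junctions over the untreated group. That mean rests on KU55933 replicates 2 and 3, the libraries with few GG ends.

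Lists of other break-prone genes gave little. The counts here are out of 14642 junctions outside chromosome 15 with KU55933 and 4457 without, so equal counts are not equal shares. Early replicating fragile genes had 40 junctions with KU55933 and 10 without, and 2 of 11 were tested, Fli1 (0.64) and Foxp1 (-1.50). Long genes and late replicating fragile sites had 97 and 21, and 7 of 25 were tested, 5 with a change above 0 and none called. Of all 162 genes tested, 101 (62.3%) had a change above 0. The median change of the 7 was 0.69, or -0.08 with the 2 genes at 0 in untreated WT at their bound. Park2, a long gene and 1 of those 2, had 10 junctions with KU55933, none without and 12 over all 16 libraries. Park2 thus passed the filter of 10 junctions through the KU55933 libraries. Foxp1 and Auts2 had a change below 0, with 4 and 3 junctions with KU55933 and 4 and 2 without. Genes of end joining and the break response had 4 junctions in each group, and none reached 10 over all libraries. Genes of T cells had 4 junctions with KU55933 and 1 without and those of myeloid cells 0 and 1, while the 7 switch regions, the defining targets in switching B cells, had 1127 and 529.

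The joins themselves were compared over junctions outside chromosome 15 with at most 20 overlapping or 10 inserted bases, a range that all 7 libraries cover. Overlaps of at least 3 bases between bait and prey made up 18.8% to 21.7% in untreated WT and 21.1%, 23.7% and 28.5% with KU55933 (exact permutation p = 0.0571). Direct joins made up 20.7% to 25.8% without and 20.3% to 23.8% with it, and insertions of 1 to 10 bases 12.2% to 14.5% and 13.8% to 17.8%. The ranges of these 3 kinds overlapped between the groups. Overlaps of 1 base made up 24.02% to 28.7% without and 20.2% to 24.0% with KU55933 and did not overlap between the groups (exact permutation p = 0.0571, adjusted 0.0927).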

How the data were processed

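The authors deposited lists with 1 junction per row, made from 454 or MiSeq reads after HaeIII digestion, adapter ligation, EcoRV and XbaI blocking and nested PCR, per the labels' protocols. Prey positions are on mm9, per the submitters' processing notes; which aligner and filters were used is not given in the sources used here. The sequencer was taken from read names. The authors' PCR count, a whole number per junction deposited in some files, was not tested. Repeat rows (55), mitochondrial rows (3) and 1 broken row were dropped. Strand, prey position, gap and the authors' gene label were used as deposited.

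Junctions per region were counted and compared with edgeR 4.0.16 (quasi-likelihood test, R 4.3.3) on all 16 libraries in a model of 5 groups, with Benjamini-Hochberg adjustment and a threshold of 0.05. Library size was the number of junctions outside chromosome 15 for 29 regions, 455 bins of 5 Mb with at least 20 junctions and 162 genes with at least 10, and all junctions for 41 regions that included 12 bands of chromosome 15. The break was placed at 61818880, where prey strands change over. The test of shares was the exact permutation test, two-sided, of the difference of means. An SE is the log2 change over the root of F. Named were all regions called, switch regions, listed genes with enough junctions and each group's top 10 genes by junctions. Alternatives included DESeq2 1.42.0. On simulated counts, changes of 1 and 2 on the log2 scale were recovered in 3 of 4 and 2 of 3 of 29 regions, but in 1 of 18 and 0 of 22 of 162 genes, so genes without a call say little. Windows shown as sequence were read from the aligned genome bases in the deposited files.

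Members and lists were chosen with earlier results of these data known. The labels do not say that replicates came from separate mice, so p-values measure only the spread between these libraries, which may be technical. Intervals were not computed, and the depth of a library is its number of junctions.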

Additional observations from a re-analysis of the deposited data

Results flagged for a closer look

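In the 4 untreated libraries, 99 shares were checked for a single library far from the other 3, and 5 had one. Chance alone gives about 1 in 20. Centromeric junctions from 1 to 5 Mb of the break made up 1.33% of all junctions in untreated WT replicate 1 and 0.919% to 0.983% in the other 3. Telomeric junctions beyond 20 Mb made up 0.706% in untreated WT replicate 4 and 0.824% to 0.831% in the others. Prey on the plus strand made up 48.7% of junctions outside chromosome 15 in untreated WT replicate 1 and 51.2% to 51.3% in the others. Of centromeric junctions from 10 to 100 kb, 28.0% were outward in untreated WT replicate 1 and 45.2% to 48.6% in the others. Of telomeric junctions from 10 to 100 kb, 86.2% were outward in untreated WT replicate 4 and 90.7% to 91.5% in the others.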

How the results depend on the processing

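Few junctions per gene limit the gene tests. The rise of chromosome 12 centromeric of Igh, the fall of Igh constant and switch (on the base outside chromosome 15, or of all junctions beyond 1 Mb), the 3 centromeric bands beyond 1 Mb and the telomeric bands from 10 kb to 1 Mb kept direction and call in every alternative that gave them a value and without each library. Of the 29 regions, 1 was lower with DESeq2, with only the 2 groups compared, with the replicate block, with KU55933 replicate 1 as the only treated library, without CA-repeat starts and without gaps above 10 bases, and 6 were lower when only 1 Mb around the break was left out. Leaving out 1 library gave 1 higher and 1 to 3 lower regions, 0 to 1 bins either way, 0 to 2 genes either way, and 29 to 32 higher and 3 to 4 lower of the 41 regions. Bins higher were 0 with the replicate block, with the run as a random block, without gaps above 10 bases, with reads of 1 junction, without junctions shared by KU55933 replicates 1 and 2, with only 1 Mb left out and with no filter, and 2 with bins of 2 Mb. Bins lower were 1 with prey ending in GG only, with only 1 Mb left out and with bins of 2 Mb. Genes higher were 10 with TMM factors, 3 with prey ending in GG only and 2 with at least 30 junctions. TMM factors moved the median change over the 162 genes from 0.48 to 1.15. Genes lower were 0 with TMM factors, DESeq2, only the 2 groups, KU55933 replicate 1 alone and no filter, and 20 with the run as a random block. Of the 41 regions, 4 were higher with TMM factors, DESeq2 or the junctions beyond 1 Mb as library size and 5 with those beyond 10 kb, and 5 (TMM factors) and 6 (DESeq2, beyond 1 Mb) were lower. The replicate block gave 1.16 for chromosome 12 and -0.47 for Igh constant and switch. Replicate numbers share no labelled animal or batch, and the correlations of same-numbered libraries over the 29 regions were -0.03, 0.17 and -0.28. Log2 changes reversed for Trg with the run as a random block (-1.62), for the telomeric band from 1 to 5 Mb with TMM factors (-0.0018) and with junctions beyond 1 Mb as library size (-0.22), for that from 5 to 20 Mb with the latter (-0.0771), and, as differences of shares in percentage points with all junctions as the base, for Igh (0.82), Igh constant and switch (0.74), Smu (0.18) and chromosome 5 (0.43). The cause was not tested. Alternatives with prey ending in GG, without CA repeats, without long gaps, with 1 junction per read, without shared junctions, with another break position and with KU55933 replicate 1 alone were chosen after seeing the data.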

Other observations

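Over the 162 genes, the 10 with most junctions differed in order between the groups. With KU55933 they were Sg1 (522), Smu (449), Il4ra (185), Se (136), Pim1 (94), Il21r (69), Cd83 (41), Bcl6 (40), Sh3bp5 (38) and Arid5a (36). In untreated WT they were Smu (205), Se (188), Sg1 (132), Il4ra (21), Pim1 (16), Mmp24 (14), Cd83 (11), Fermt2 (8), Il21r (7) and Sfi1 (7). Mmp24, a membrane metalloproteinase gene, had 24 junctions with KU55933 and a change of -0.92 on the log2 scale (SE 0.64, edgeR adjusted p = 0.431).

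Among T cell receptor loci, Tra/Trd had 5 junctions with KU55933 and 2 without, Trb 2 and 0, and Trg 1 and 0. Prey that began in a CA repeat were also frequent in the other MiSeq libraries of the series, under another stimulus, at 7.77% to 9.83% in WT and 16.003% to 21.5% in ATM-/-, while the ATM-/- libraries read on the 454 held 0.314% to 0.958%.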
